A study of Bos taurus with 5 samples.

Results

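Short loci without an Ensembl transcript are stretches of the cattle genome under 300 nt from start to end that the authors' assembly of blood leukocyte RNA placed on a numbered chromosome or X, and none of whose transcripts carries an Ensembl ID. They were chosen by span, by the missing ID and by a mean of at least 1 FPKM over 5 libraries, and 165 of the 13871 loci with such a mean met the rule. Before the filter on the mean there were also 165, so it removed none. The longest members spanned 299 nt and averaged 12.4 and 2.69 FPKM. The shortest unannotated loci just outside the rule spanned 300 nt, and 3 of them averaged 16.5, 4.61 and 3.77 FPKM. The lowest mean inside the rule was 1.14 FPKM.

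The libraries were made from white cells of peripheral blood of 5 cattle populations, 1 library each. Holstein dairy cattle and Iranian native cattle were the parent breeds of the crosses. 75C had 75 percent Holstein and 25 percent native ancestry. 50CSH and 50CSN had 50 percent of either breed, the sire being Holstein in 50CSH and native in 50CSN. The purebred populations were labelled H and N, letters that the labels do not spell out. Neither the number of animals behind a library nor their age, sex or treatment is stated in the labels. A difference between 2 populations therefore has no replicate check, and p-values over the 3 crossbred and 2 purebred libraries reflect how these 5 libraries differ and nothing wider. The files pair no ID with a gene symbol, so markers of leukocyte types were not read. In whole blood leukocytes, fewer cells of a type and less RNA per cell cannot be told apart.

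An assembler reports a locus wherever aligned fragments pile up, whether or not an annotation knows a gene there. A short unspliced locus of this kind can be a small non-coding RNA, a processed copy of a gene, an unannotated exon, the end of a longer transcript, or repeated sequence that gathers fragments from elsewhere. FPKM (fragments per kilobase, scaled to library size) divides the fragments of a locus by the number of places where a fragment of the library's typical lengths could start within it. When a locus is hardly longer than a fragment, few such places remain, and a single fragment can stand for a very large FPKM.

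The 165 loci had a median span of 195 nt, from 106 to 299 nt, and each had 1 transcript. They lay on 29 chromosomes, with 11 on chromosome 3, 10 on chromosome 15 and 9 each on chromosomes 5 and 6. None overlapped a locus with an Ensembl transcript, which the rule itself favours, since a locus inside a longer bundle is listed with the span of the bundle. Of the 165, 47 lay within 10 kb of an annotated locus, 74 lay between 10 and 100 kb and 44 lay farther away, with a median distance of 29317 nt. Coordinates are those of the deposited tables. The labels state neither their genome build nor whether they count from 0 or from 1.

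The short loci stood out by their FPKM and by their zeros. The median over loci of the mean FPKM was 34.9 for the short loci, against 2.50 for 1670 longer loci without an Ensembl transcript and 10.8 for all 13871 loci. Of the short loci, 50 (30.3%) averaged above 100 FPKM, against 2.34% of the longer unannotated loci and 6.36% of all loci. Above 1000 FPKM on average there were 15 short loci. Listed at 0 in at least 1 library were 24 short loci (14.5%), against 2.99% of the longer unannotated loci and 1.62% of all loci. By library, 9 were listed at 0 in 75C, 10 in 50CSH, 4 in 50CSN, 17 in H and 1 in N. The 36 short loci that do carry an Ensembl transcript shared both features, with a median of 41.2 FPKM and 15 of 36 (41.7%) listed at 0 in at least 1 library. These shares describe the loci and were not tested, since loci are not replicates of a condition.

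The deposited FPKM of the short loci could be taken back to fragments. Loci of one span and 1 transcript had FPKM values that were whole multiples of a common step, and that step followed a smooth curve of the span in each library. The step is what 1 fragment is worth. At spans that were not used to draw the curve, 137 of 137 values under 10 fragments and 282 of 283 values under 50 fragments fell within 0.1 of a whole number, where evenly spread values would do so in 20% of cases. For a locus of 111 nt, 1 fragment was worth 654 FPKM in 75C, 311 in 50CSH, 294 in 50CSN, 545 in H and 409.7 in N. For a locus of 195 nt, it was worth 2.2 FPKM in 75C, 1.67 in 50CSH, 1.48 in 50CSN, 2.0 in H and 1.68 in N. The worth of 1 fragment was thus 272 times higher at 111 nt than at 195 nt in H. The libraries also differed among themselves, and more so at short spans. The highest library exceeded the lowest 2.22-fold at 111 nt, 2.02-fold at 128 nt and 1.35-fold at 282 nt, against 1.27-fold from depth alone, which was read from longer loci with 1 transcript. At 111 nt the worth relative to H was 1.20 in 75C, 0.571 in 50CSH, 0.539 in 50CSN and 0.752 in N. Depth alone would put these at 1.07 in 75C, 0.983 in 50CSH, 0.868 in 50CSN and 0.838 in N. The labels' protocol gives a fragment length of 130 bp for all libraries, and the lengths each library actually had are not stated.

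**Figure D1:**
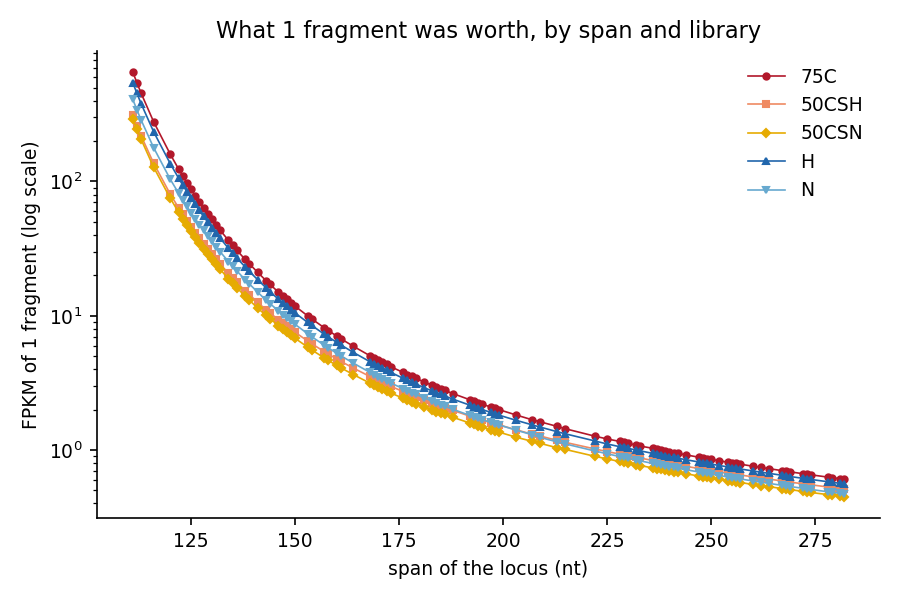
FPKM that 1 fragment stood for (vertical axis, log scale) against the span of the locus in nt, for the 5 libraries. The worth falls from 654 FPKM in 75C at 111 nt to 0.606 FPKM at 282 nt, and the libraries spread apart toward the short end, where 50CSN and 50CSH are lowest.

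Most short loci held few fragments. The estimated fragments of the 165 loci summed to 50469 over the 5 libraries, with 9335 in 75C, 11020 in 50CSH, 12328 in 50CSN, 8193 in H and 9593 in N. The median locus held 11 fragments in 75C, 12 in 50CSH, 13 in 50CSN, 11 in H and 16 in N. A count of 10 has an exact Poisson 95% interval from 4.80 to 18.4, which covers counting error only, as fragments copied by PCR are not independent molecules. Of the 165 loci, 67 averaged under 10 fragments a library, 64 averaged 10 to 49 and 34 averaged at least 50. The 34 held 83.2% of all fragments of the short loci, while the 67 held 3.93%. Altogether 2 loci reached 1000 fragments in a library.

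Ranking by FPKM and ranking by fragments picked different loci. Of the 10 loci with the highest mean FPKM, 3 were among the 10 with the most fragments. Across the 165 loci, Spearman's rho was -0.69 between mean FPKM and span, 0.18 between mean fragments and span and 0.48 between mean FPKM and mean fragments. These correlations are across loci, which share libraries and their depths, and are given as descriptions. The 20 loci of 100 to 129 nt held 80.4% of the short loci's FPKM in 75C, 80.5% in 50CSH, 79.9% in 50CSN, 74.3% in H and 77.6% in N. The same 20 held 7.18% of the fragments in 75C, 8.87% in 50CSH, 7.88% in 50CSN, 6.15% in H and 8.55% in N. At the other end, the 37 loci of 250 to 299 nt held from 2.68% (N) to 4.42% (50CSN) of the FPKM. They held 53.0% of the fragments in 75C, 52.2% in 50CSH, 57.6% in 50CSN, 47.6% in H and 44.5% in N.

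**Figure D2:**
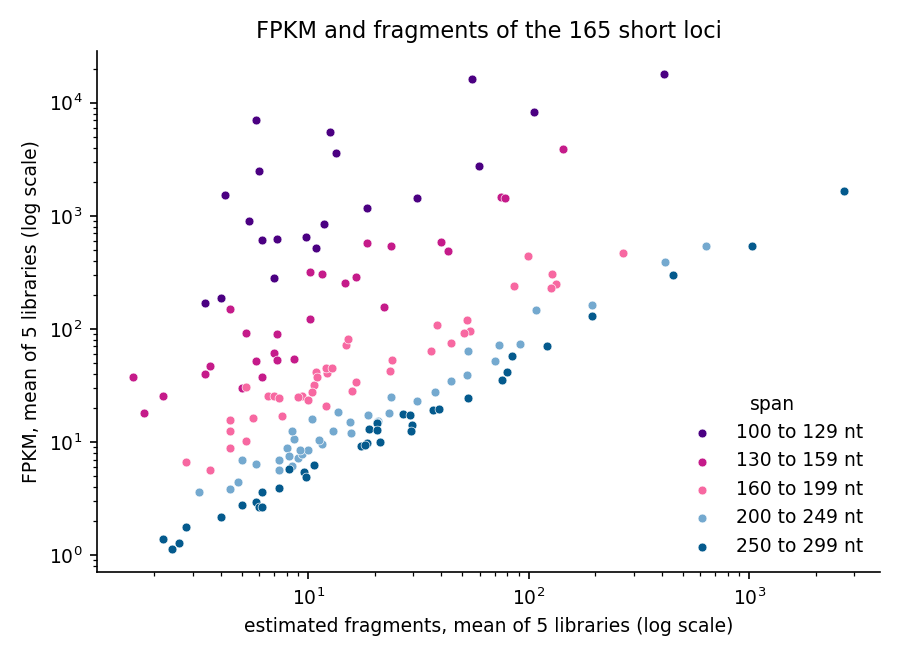
Mean FPKM (vertical axis, log scale) against mean estimated fragments (horizontal axis, log scale) of the 165 short loci over the 5 libraries, one point per locus, coloured by span class. At a given number of fragments, loci of 100 to 129 nt lie highest and loci of 250 to 299 nt form the lower edge.

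The highest FPKM values came from loci close to the length of a fragment. First by mean FPKM was the locus chr18:61195121-61195249, 128 nt long and 179 nt from the nearest annotated locus (ENSBTAT00000055278). It stood at 21786 FPKM in 75C, 18929 in 50CSH, 13298 in 50CSN, 12935 in H and 21904 in N, which are 342, 552, 421, 235 and 507 estimated fragments in the same order of libraries, the order kept wherever fragments follow FPKM. Purebred N was highest by FPKM and 50CSH was highest by fragments, and the purebred values enclosed all crossbred FPKM values. Second was the locus chr3:104213404-104213517, 113 nt long and 176547 nt from the nearest annotated locus. It stood at 26363 FPKM in 75C, 12479 in 50CSH, 18735 in 50CSN, 14064 in H and 9763 in N, from 58, 57, 91, 37 and 34 fragments. 75C led by FPKM, and 50CSN led by fragments. Next was the locus chr8:33937054-33937176, 122 nt long, at 9181 FPKM in 75C, 8143 in 50CSH, 10754 in 50CSN, 6988 in H and 6291 in N. All 3 crossbred values lay above both purebred values there, from 74, 128, 182, 66 and 77 fragments.

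Those 3 loci carried 45.4% of the short loci's FPKM in 75C, 46.4% in 50CSH, 51.4% in 50CSN, 42.3% in H and 43.9% in N. Their fragments made up 5.08% of those of the short loci in 75C, 6.69% in 50CSH, 5.63% in 50CSN, 4.13% in H and 6.44% in N. Further down, high FPKM rested on a handful of fragments. The locus chr5:41316972-41317083, 111 nt long, was listed at 11124 FPKM in 75C, 4354 in 50CSH, 4698 in 50CSN, 4357 in H and 3278 in N. Its fragments numbered 17 in 75C, 14 in 50CSH, 16 in 50CSN, 8 in H and 8 in N, so that the 75C value was far ahead by FPKM and close to the other crossbreds by fragments. The shortest locus of all, chr18:61904620-61904726, was at 10526 FPKM in 75C, 8731 in 50CSH, 1848 in 50CSN, 5201 in H and 9020 in N. Its span of 106 nt lies below the shortest span of 111 nt in the curve, and the curve carried on to it gave 5.76, 9.86, 2.22, 3.43 and 7.82 fragments, which are not whole and are rough. The locus chr11:14721519-14721631, 112 nt long, was at 5428 FPKM in 75C, 259.8 in 50CSH, 1224 in 50CSN, 2718 in H and 2732 in N. Its FPKM values spread widely, from 10, 1, 5, 6 and 8 fragments.

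The loci with the most fragments were longer, and the first of them was chrX:14580247-14580511. It spans 264 nt, lies 59709 nt from the nearest annotated locus (ENSBTAT00000037594) and held 13474 fragments over the 5 libraries, 26.7% of all fragments of the short loci. Its FPKM was 1883 in 75C, 1910 in 50CSH, 2073 in 50CSN, 1243 in H and 1116 in N, and its fragments numbered 2595, 3149, 3892, 1857 and 1981. Scaled to the depth of H, these were 2772 fragments in 75C, 3095 in 50CSH, 3376 in 50CSN, 1857 in H and 1660 in N. All crossbreds lay above both purebreds by either measure. The limma difference of log2(FPKM + 1), crossbred minus purebred, was 0.73 (SE 0.13), with a Benjamini-Hochberg adjusted p of 0.11 over all 13871 loci (0.080 to 0.35 over the alternatives), which misses the threshold of 0.05. In the authors' deposited table of pooled crossbred against pooled purebred libraries, which has no replicate check here, the transcript is marked significant at a q-value of 0.00927.

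Second by fragments was the locus chr21:1775230-1775511, 281 nt long and 33470 nt from the nearest annotated locus (ENSBTAT00000059132). It stood at 678 FPKM in 75C, 529 in 50CSH, 619 in 50CSN, 474 in H and 389 in N, from 1108, 1024, 1363, 838 and 817 fragments. As at the X locus, all crossbreds lay above both purebreds, 50CSN lay above 50CSH and H above N, while 75C was the highest crossbred by FPKM here and the lowest there. The limma adjusted p was 0.17. The third locus went the other way. At chr25:29268761-29269000, 239 nt long and 7287 nt from ENSBTAT00000026008, the values were 597 FPKM in 75C, 300 in 50CSH, 276 in 50CSN, 776 in H and 740.3 in N, from 606, 373, 390, 857 and 971 fragments. Both 50 percent crosses were far below either purebred, and 75C lay between. The difference was -1.04 (SE 0.35) on the log2 scale, with a limma adjusted p of 0.18.

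Crossbreds were again above purebreds at the next locus, chr4:108339125-108339380, 255 nt long. Its values were 311 FPKM in 75C, 373 in 50CSH, 408 in 50CSN, 221 in H and 193 in N, from 387, 560, 697, 298 and 309 fragments, and the difference was 0.81 (SE 0.15) with a limma adjusted p of 0.11. The widest spread among well covered loci was at chr20:29736031-29736259, 228 nt long and 14681 nt from the nearest annotated locus (ENSBTAT00000059266). It stood at 328 FPKM in 75C, 762 in 50CSH, 466 in 50CSN, 268 in H and 148 in N, from 284, 817, 567, 252 and 165 fragments. At the depth of H the highest library, 50CSH, held 5.81 times the fragments of the lowest, N. The limma difference was 1.29 (SE 0.42) with an adjusted p of 0.18, while the authors' deposited tables mark it at a q-value of 0.00927 for the pooled comparison and 0.0430 for 50CSH over H and for 50CSH over N.

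**Figure D3:**
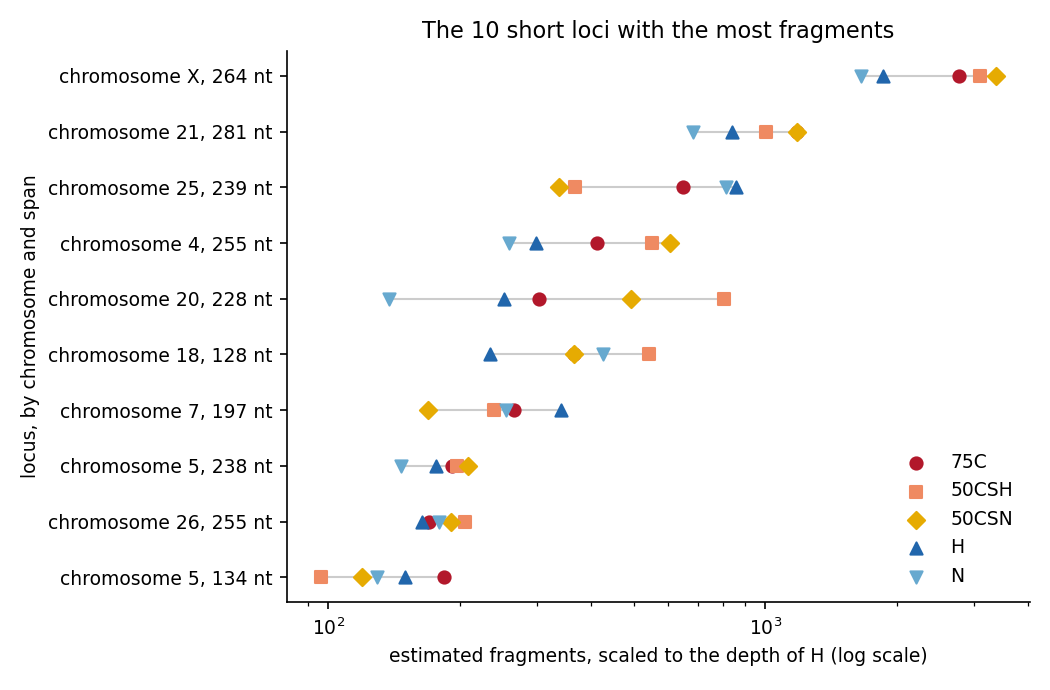
Estimated fragments scaled to the depth of H (horizontal axis, log scale) for the 10 short loci with the most fragments, one row per locus named by chromosome and span, with 1 point per library. On the rows of chromosomes X, 21, 4 and 20, and of the 238 nt locus of chromosome 5, all 3 crossbred points lie right of both purebred points, and on chromosome 25 they lie left.

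Well covered loci varied less between libraries than thinly covered ones. Among the 34 loci with at least 50 fragments on average, the highest library at equal depth held a median of 1.71 times the fragments of the lowest, from 1.23 to 5.81 times, and none was listed at 0. Among 61 loci of 10 to 49 fragments without a zero the median ratio was 2.11, and among 46 loci of under 10 fragments without a zero it was 4.57. Counting error alone widens this ratio at low counts, so the order of the classes is a description and no result about the loci. The steadiest was the locus chr29:9864402-9864656, 254 nt long. It held 65 fragments in 75C, 74 in 50CSH, 93 in 50CSN, 85 in H and 102 in N, with 52.8, 49.8, 55.0, 63.6 and 64.3 FPKM. The locus chr26:26984559-26984814, 255 nt long, held 159 fragments in 75C, 209 in 50CSH, 220 in 50CSN, 164 in H and 214 in N, with 128, 139, 129, 121 and 133 FPKM. Both lie over 30 kb from any annotated locus, at 31814 and 583355 nt. Of the 24 loci listed at 0 in a library, 21 averaged under 10 fragments and 3 averaged 10 to 49. A 0 itself lowers the average that sets the class.

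As a group the short loci took up 15.0% of the summed FPKM in 75C, 10.8% in 50CSH, 9.75% in 50CSN, 11% in H and 11.8% in N. The crossbred libraries averaged 11.8% ± 2.75 (SD, n = 3) and the purebred libraries 11.4% ± 0.568 (SD, n = 2), a difference within the spread of the crossbreds (exact permutation test, two-sided p = 1.00, where the smallest possible is 0.20). The sign of that difference rested on 75C, since without it the crossbreds lay 1.07 percentage points lower (-1.07). By fragments the order of libraries changed. At the depth of H the short loci held 9970 fragments in 75C, 10831 in 50CSH, 10695 in 50CSN, 8193 in H and 8039 in N. The crossbred libraries averaged 10499 ± 463 fragments (SD, n = 3) and the purebred libraries 8116 ± 109 (SD, n = 2), with all crossbreds above both purebreds (exact permutation test, two-sided p = 0.20, the smallest possible). Summed FPKM put 75C at 1.57 times H, 50CSH at 1.06 times and 50CSN at 1.03 times, whereas fragments at equal depth put 75C at 1.22 times, 50CSH at 1.32 times and 50CSN at 1.31 times.

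Neither measure is free of the library. FPKM multiplies each fragment by a worth that differed up to 2.22-fold between libraries, while fragments at equal depth carry no adjustment for how many of a library's fragments were short enough to lie within the locus. 50CSH and 50CSN, where a fragment was worth least at short spans, also held the most fragments. The part of fragment length in these differences was not tested. The X locus alone took 27.8% of the fragments in 75C, 28.6% in 50CSH, 31.6% in 50CSN, 22.7% in H and 20.7% in N. Without it, fragments relative to H were 1.14 in 75C, 1.22 in 50CSH, 1.16 in 50CSN and 1.01 in N, and the excess of the crossbred mean was 1060 fragments instead of 2383. Among loci of at least 200 nt, where the libraries' worth of a fragment differed least, the excess was 2024 fragments. That set includes the X locus.

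**Figure D4:**
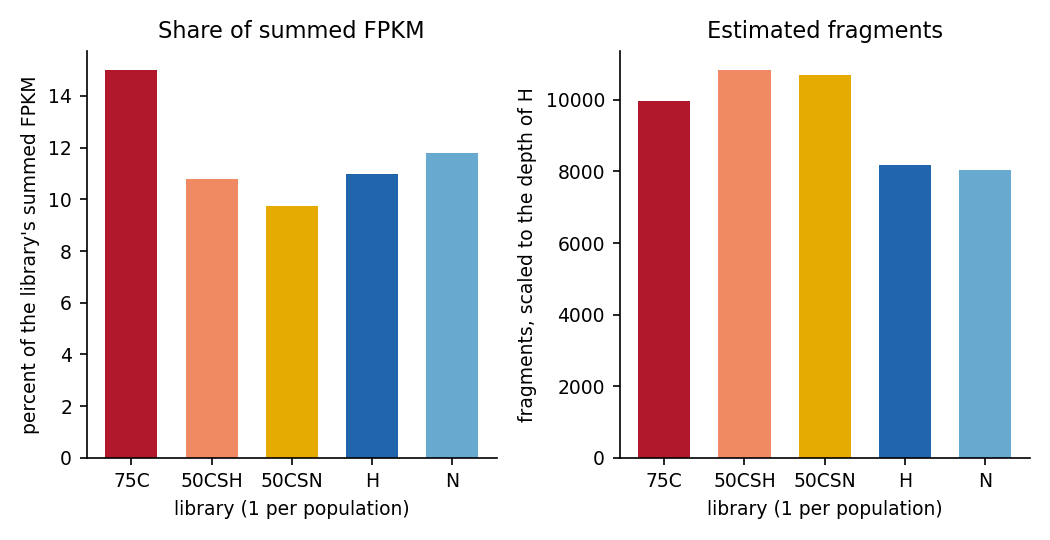
Left, percent of each library's summed FPKM in the 165 short loci; right, their estimated fragments scaled to the depth of H, one bar per library. 75C is highest by FPKM at 15.0%, while all 3 crossbreds lie above H and N by fragments.

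The sums of fragments were split by coverage and by distance from annotated loci. Loci with at least 50 fragments on average held 1.26 times the fragments of H in 75C, 1.37 times in 50CSH, 1.35 times in 50CSN and 0.95 times in N, and without the X locus 1.17, 1.26, 1.18 and 0.972 times. The 64 loci of 10 to 49 fragments held 1.03 times in 75C, 1.05 times in 50CSH, 1.06 times in 50CSN and 1.000 times in N. Loci of under 10 fragments were highest in N, at 1.58 times H. The 118 loci over 10 kb from an annotated locus stood at 1.28 times H in 75C, 1.42 times in 50CSH, 1.44 times in 50CSN and 0.932 times in N, and without the X locus at 1.19, 1.33, 1.29 and 0.948 times. The 47 loci within 10 kb of one stood at 0.973 times H in 75C, 0.919 times in 50CSH, 0.773 times in 50CSN and 1.17 times in N. This last split rests on the chromosome 25 locus, which has the most fragments of the 47. Without it the other 46 stood at 1.21 times H in 75C, 1.45 times in 50CSH, 1.18 times in 50CSN and 1.41 times in N. All 3 crossbreds then lay above H in both distance classes. They also lay above N in the far class, but among these 46 only 50CSH did. These splits were not tested.

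Crossbreds were also compared with purebreds locus by locus, as the submitters did when they pooled the libraries. By FPKM 24 short loci (14.5%) were above H and N in every crossbred, against 21.0% of all 13871 loci, and 16 (9.70%) were below both in every crossbred, against 22.3%. By fragments at equal depth 29 (17.6%) lay above and 16 (9.70%) below. Of the 34 loci with at least 50 fragments, 14 lay above and 3 below. Fragments were not estimated for all 13871 loci, so no share over all loci can be set beside these counts. No short locus passed a limma adjusted p of 0.05, against 0.0288% of all loci (4 loci). At an unadjusted limma p under 0.05 there were 27 short loci (16.4%), 15 higher and 12 lower, against 21.7% of all loci. The median log2 difference was -0.06 for the short loci and -0.01 for all loci.

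Loci above 0 in every library and averaging at least 5 FPKM were ranked by the size of the difference, where the groups did not overlap. Lowest in crossbreds, and with the smallest adjusted p of all short loci, was the locus chr29:47000250-47000419, 169 nt long and 283 nt from the nearest annotated locus (ENSBTAT00000061554). It stood at 9.70 FPKM in 75C, 13.6 in 50CSH, 9.13 in 50CSN, 48.2 in H and 47.5 in N, from 2, 4, 3, 11 and 13 fragments. All crossbreds were low, and the ranking itself required groups without overlap. The difference was -2.07 (SE 0.18) with a limma adjusted p of 0.078, and over the alternatives the adjusted p went from 0.044 to 0.28. It passed with robust fitting, at 0.047, and without 50CSH, at 0.044. Second lowest in this ranking was chr11:30248843-30249001, 158 nt long, with 31.1 FPKM in 75C, 20.7 in 50CSH, 18.6 in 50CSN, 48.7 in H and 69.1 in N, from 4, 4, 4, 7 and 12 fragments. Its difference was -1.30 (SE 0.26) with a limma adjusted p of 0.12. Such small counts have wide intervals, from 1.09 to 10.2 for 4 fragments and from 5.49 to 19.7 for 11 (exact Poisson, 95%), and limma sees only the FPKM values.

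Highest in the same ranking was the locus chr21:623193-623336, 143 nt long. It was at 109.8 FPKM in 75C, 134 in 50CSH, 111 in 50CSN, 32.4 in H and 65.7 in N, from 6, 12, 11, 2 and 5 fragments, with a difference of 1.33 (SE 0.30) and a limma adjusted p of 0.13. Second was the chromosome 20 locus described above, at 1.29. The third, chr2:25823985-25824109, 124 nt long, had 1177 FPKM in 75C, 511 in 50CSH, 852 in 50CSN, 420.2 in H and 261 in N, from 12, 10, 18, 5 and 4 fragments. The locus chr7:44309891-44310030, 139 nt long, had 414 FPKM in 75C, 273 in 50CSH, 288 in 50CSN, 171 in H and 121 in N, from 17, 19, 22, 8 and 7 fragments. The last is one of a pair. Its neighbour, 195 nt away from 44309489 to 44309696 and 207 nt long, also had all crossbreds above both purebreds, at 172 FPKM in 75C, 145 in 50CSH, 195 in 50CSN, 108 in H and 115 in N, from 102, 110, 168, 70 and 89 fragments. The limma differences of the pair were 1.14 (SE 0.24) and 0.60 (SE 0.14).

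In all 12 short loci lay within 1 kb of another, as 6 pairs, and no group of 3 was found within 100 kb. Loci this close may be parts of 1 transcript, which these files do not settle. On chromosome 7 a second pair, from 65248758 to 65248896 and from 65249422 to 65249619, was well covered. Its first locus held 79 fragments in 75C, 60 in 50CSH, 72 in 50CSN, 71 in H and 94 in N, and its second held 249, 244, 195, 340 and 304. By FPKM the first stood at 2078, 923, 1009, 1640 and 1746 and the second at 521, 391, 277, 649.6 and 489, in the same order of libraries. Both 50 percent crosses were the lowest libraries at both loci by FPKM. In both pairs of chromosome 11 the neighbours differed in which library was highest. Beside the locus of 112 nt with 1 to 10 fragments, its neighbour from 14721870 to 14722009 was at 268 FPKM in 75C, 273 in 50CSH, 261 in 50CSN, 449.9 in H and 189.9 in N, from 11, 19, 20, 21 and 11 fragments. Beside the locus from 30248843, its neighbour from 30248489 to 30248733 was at 11 FPKM in 75C, 12.1 in 50CSH, 15.3 in 50CSN, 11 in H and 9.99 in N.

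Between single libraries, the short loci were at least 2-fold apart on the log2(FPKM + 1) scale far more often than other loci. Over the 10 pairs the share ran from 23.0% to 35.8% of the short loci, against 5.93% to 11.2% of the longer unannotated loci and 2.82% to 5.90% of all loci. Most of these differences rested on few fragments, since between 34 and 46 of the loci apart in a pair held under 20 fragments in both libraries. Among loci with at least 50 fragments in either library of a pair, between 0 and 7 were apart, of 33 to 40. No pair has a test, as each population has 1 library, and pairs that share a library are not independent.

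The purebred comparison, H over N, had more lower than higher loci when loci listed at 0 were counted. In H 14 short loci (8.48%) were at least 2-fold higher than in N, against 1.46% of all loci, and 30 (18.2%) were lower, against 1.86%. By fragments at equal depth 13 were higher and 31 lower, and in 18 of the 44 apart by FPKM either H or N was at a listed 0. Among the 141 short loci above 0 in all 5 libraries, the split by FPKM was near even, with 10 higher and 11 lower. None of the 36 loci with at least 50 fragments was apart. Highest in H by the naming rule was the locus chr2:48763277-48763470, at 25.2 FPKM in H and 3.54 in N, from 12 and 2 fragments. At chr20:33732551-33732678 the level was 731 FPKM in H and 143 in N, from 12 and 3 fragments, and the crossbreds lay near H at 636 in 75C, 603 in 50CSH and 487 in 50CSN. Lowest in H was the locus chr29:17352720-17352866, at 13.3 FPKM in H and 65.3 in N, from 1 and 6 fragments. At chr12:64039734-64039947 the level was 4.11 FPKM in H and 18.5 in N, from 3 and 16 fragments, with 17.9 in 75C, 3.54 in 50CSH and 9.38 in 50CSN.

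The 50 percent crosses differ in the breed of the sire, and over all 165 short loci about as many were higher as lower between them. In 50CSH 21 short loci were at least 2-fold higher than in 50CSN (12.7%, against 1.25% of all loci) and 18 were lower (10.9%, against 1.56%). By fragments 22 were higher and 18 lower, and 1 of 36 loci with at least 50 fragments was apart. The balance by FPKM depended on the set of loci. Among the 141 loci above 0 in all 5 libraries 16 were higher and 8 lower, and under 500 nt 41 and 27. At chr8:59316547-59316725 the level was 18 FPKM in 50CSH and 2.29 in 50CSN, from 7 and 1 fragments. At chr14:75284266-75284450, the values were 15.2 FPKM in 50CSH and 1.93 in 50CSN, again from 7 and 1 fragments. Lower in 50CSH was the locus chr8:24238854-24238980, at 83.2 FPKM in 50CSH and 423 in 50CSN, from 2 and 11 fragments. The locus chr6:118432317-118432564 stood apart with 0.729 FPKM in 50CSH, 1 fragment, against 4.49 in 50CSN, 7 fragments, and 8.85 in 75C, 7.34 in H and 6.87 in N. The named loci of this pair held at most 14 fragments in either library.

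75C was set against the 50 percent crosses, which have a smaller Holstein share, and here the direction depended on the measure. By FPKM 35 short loci were at least 2-fold higher in 75C than in 50CSH (21.2%, against 2.54% of all loci) and 22 were lower (13.3%, against 1.07%). By fragments at equal depth 23 were higher and 29 lower. Against 50CSN, 32 were higher in 75C (19.4%, against 2.22% of all loci) and 21 were lower (12.7%, against 1.36%), and by fragments 22 were higher and 27 lower. The median log2 difference changed sign as well, with 0.14 by FPKM and -0.07 by fragments over 50CSH, and 0.13 and -0.17 over 50CSN. Loci with at least 50 fragments were apart in 7 of 34 cases over 50CSH and 7 of 37 over 50CSN.

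Some loci were higher in 75C than in both 50 percent crosses by either measure. At chr3:26456971-26457143, 172 nt long, the values were 91.1 FPKM in 75C, 15.4 in 50CSH and 8.25 in 50CSN, from 21, 5 and 3 fragments, with 43.1 in H and 65.5 in N. At chr9:102935-103082, 147 nt long, they were 749 FPKM in 75C, 203 in 50CSH and 215 in 50CSN, from 53, 23 and 27 fragments, with 728 in H and 564 in N. At chr27:34572544-34572704, they were 42.4 FPKM in 75C, 14.3 in 50CSH and 8.55 in 50CSN, from 6, 3 and 2 fragments, with 44.4 in H and 42.1 in N. At these 3 loci both 50 percent crosses lay below both purebreds by FPKM. By FPKM, 75C lay above both purebreds on chromosomes 3 and 9 and between them on chromosome 27. H and N held 11 and 20 fragments on chromosome 3, 58 and 55 on chromosome 9, and 7 and 8 on chromosome 27. By fragments 75C was thus not above H on chromosome 9 and not above H on chromosome 27. The well covered locus chr3:43058845-43059040, 195 nt long and picked here for its spread after its values were seen, was at 413 FPKM in 75C, 296 in 50CSH, 151 in 50CSN, 100.2 in H and 190.3 in N, from 188, 177, 102, 50 and 113 fragments. Low in 75C was the locus chr4:64822972-64823212, 240 nt long, with 4.85 FPKM in 75C, 20.6 in 50CSH and 23.1 in 50CSN, from 5, 26 and 33 fragments, against 14.3 in H and 27.1 in N. At chr5:88467418-88467606 the level was 2.63 FPKM in 75C, 23.6 in 50CSH and 10.5 in 50CSN, from 1, 12 and 6 fragments.

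Set against H, both 50 percent crosses had more higher than lower loci by fragments and not by deposited FPKM. Over H, 75C had 23 higher loci (13.9%, against 1.65% of all loci) and 15 lower (9.09%, against 1.87%), and 23 and 16 by fragments. 50CSH over H had 23 higher (13.9%, against 1.73%) and 24 lower (14.5%, against 4.17%) by FPKM, and 34 higher and 17 lower by fragments. 50CSN over H had 23 higher (13.9%, against 2.15%) and 29 lower (17.6%, against 3.66%) by FPKM, and 37 higher and 23 lower by fragments. By FPKM a listed 0 entered 12 of the 47 loci apart for 50CSH over H and 17 of 52 for 50CSN over H. Among the 141 loci above 0 in all 5 libraries, 50CSN over H had 7 higher and 25 lower by FPKM. In that set 50CSH over H had 14 higher and 18 lower, and 75C over H 14 and 10. The split by fragments was not counted without loci listed at 0. Over N, lower loci led by either measure. 75C over N had 18 higher (10.9%, against 2.09%) and 34 lower (20.6%, against 2.62%), and 15 and 38 by fragments. 50CSH over N had 12 higher (7.27%, against 1.48%) and 38 lower (23.0%, against 4.24%), and 23 and 30 by fragments. 50CSN over N had 18 higher (10.9%, against 1.82%) and 41 lower (24.8%, against 4.04%), and 25 and 36 by fragments. Among the 141 loci above 0 in all 5 libraries, 75C over N had 14 higher and 18 lower by FPKM. In that set 50CSH over N had 9 higher and 22 lower, and 50CSN over N 12 and 28. N had 1 short locus listed at 0, against 9 in 75C, 10 in 50CSH and 4 in 50CSN. N had the fewest loci under 10 fragments, 52, against 74 in 75C, 57 in 50CSH, 62 in 50CSN and 71 in H, and the highest depth, 1.19 times that of H, against 0.936 in 75C, 1.02 in 50CSH and 1.15 in 50CSN. The part of depth in the split over N was not tested.

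**Figure D5:**
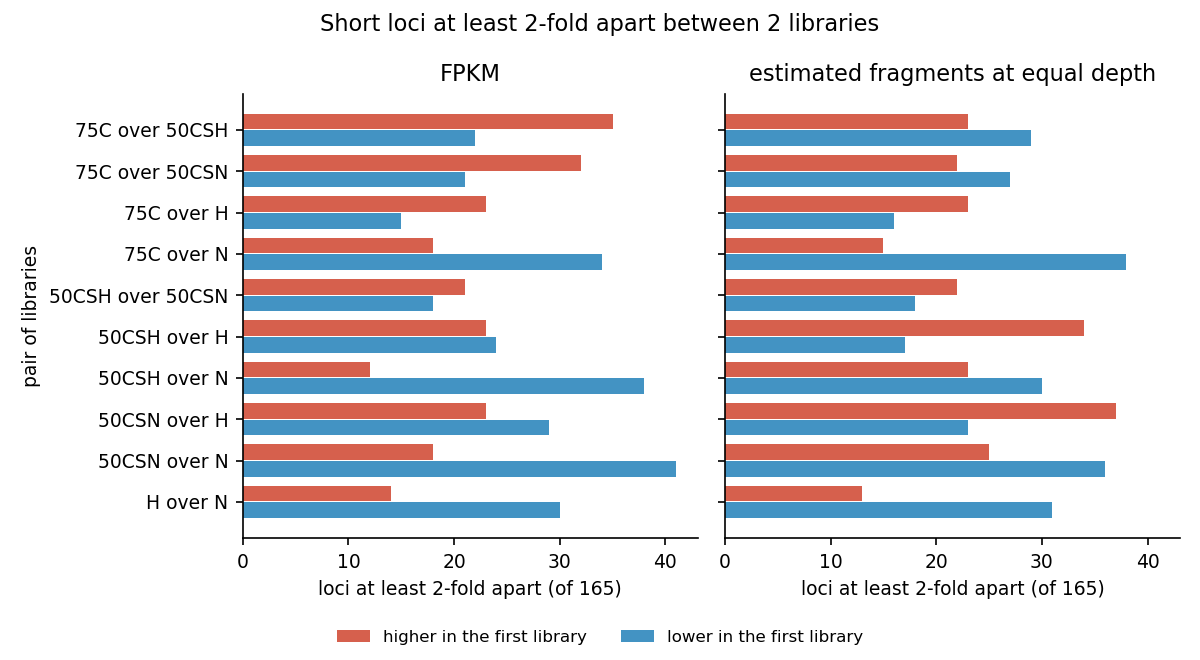
Number of the 165 short loci at least 2-fold apart in each of the 10 pairs of libraries, by FPKM on the left and by estimated fragments at equal depth on the right, with loci higher in the first library above those lower in it. In 75C over 50CSH the bars swap order between the measures (35 and 22 by FPKM, 23 and 29 by fragments), and every pair over N has more lower loci on both sides.

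The authors' own pairwise calls name 7 short loci, and all but 1 of the 7 had a value of 0 in some library. In 7 of the 10 pairs the authors' deposited table marks a short locus as significant, each at a q-value of 0.0430. The locus chr27:6068860-6069038, 178 nt long, is marked in 3 of them in the authors' deposited table, for 75C over 50CSN (where 0.0849% of tested transcripts are marked), for 50CSH over 50CSN (0.0477%) and for 50CSN over H (0.157%). It stood at 101 FPKM in 50CSN, from 44 fragments, and 16.1 in N, from 6, and was listed at 0 in 75C, 50CSH and H. The locus chr21:49894818-49895117, 299 nt long, is marked for 50CSH over 50CSN and 50CSH over H (0.176% of tested transcripts in the authors' deposited table). Its values were 3.14 FPKM in 75C, 34.9 in 50CSN, 21.3 in H and 2.85 in N, from 6, 89, 44 and 7 fragments, and it was listed at 0 in 50CSH. High and low libraries there cut across crossbred and purebred.

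Of the remaining calls, 3 loci were listed at 0 in H. At chr15:5503057-5503218, 161 nt long, the level was 67.5 FPKM in 75C, 55.0 in 50CSH, 90.3 in 50CSN and 151 in N, from 10, 12, 22 and 30 fragments, and the authors' deposited table marks it for H over N (0.0796% of tested transcripts). Without N the limma adjusted p of its crossbred difference was 0.031, against 0.49 with all libraries and a range of 0.031 to 0.65 over the alternatives, with H, listed at 0 there, as the only purebred. At chr12:28069408-28069528, 120 nt long, the level was 1275 FPKM in 75C, 1496 in 50CSN and 312 in N, from 8, 20 and 3 fragments. This locus was listed at 0 in 50CSH and H and is marked in the authors' deposited table for 50CSN over H. At chr27:28551997-28552212, 215 nt long, the level was 1.44 FPKM in 75C, 4.03 in 50CSN and 26.7 in N, from 1, 4 and 24 fragments. It too was listed at 0 in 50CSH and H, and it is marked for 50CSH over N (0.151% of tested transcripts in the authors' deposited table) and H over N. At chr21:67938003-67938271, 268 nt long, the values were 1.75 FPKM in 50CSH, 1.02 in 50CSN, 7.06 in H and 17.3 in N, from 3, 2, 11 and 32 fragments, with 75C listed at 0, and the authors' deposited table marks 75C over N (0.183% of tested transcripts). For the pooled comparison the authors' deposited table marks the chromosome X and chromosome 20 loci described above and 0.936% of tested transcripts. An exact 0 in such tables can be a failed estimate, so no fold is given against it. Loci with a listed 0 do enter the counts of loci at least 2-fold apart by FPKM. They made up from 4 of 59 for 50CSN over N to 18 of 44 for H over N.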

How the data were processed

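Leukocyte RNA of 5 cattle populations was measured by sequencing, 1 library each. Per the labels' protocols, poly(A) RNA was cut to 130 bp, primed at random and read as pairs of 100 bases; no step that marks strand is named. The submitters' processing notes name TopHat2 2.0.9 and Cufflinks 2.2.1.0 and no build, annotation or settings. The authors deposited FPKM values per transcript, with p-values and q-values, in Cuffdiff-format tables, per the file headers.

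FPKM was summed per locus, and 13871 of 31898 loci, those averaging 1 FPKM or more, were kept. The step of FPKM values at each span gave what 1 fragment was worth (111 to 299 nt, 50CSH to 282 nt), from 47 to 50 spans and 120 to 126 loci per library, and FPKM divided by it gave fragments. Depth relative to H is the most frequent ratio among low values of 2343 longer loci. Fragments were compared as log2(fragments + 0.5) and FPKM as log2(FPKM + 1), which understates changes of low loci. The test of crossbred over purebred used limma 3.58.1 (R 4.3.3, trend, Benjamini-Hochberg over all kept loci), tested on simulated data, and with exact permutation tests in scipy 1.17.1. Python 3.11.15, pandas 2.3.3, numpy 2.4.6 and matplotlib 3.10.9 handled tables and plots.

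Members, lists and tests were chosen with earlier results of these data known. Named loci were the 10 highest by mean FPKM, the 4 highest and 4 lowest in 4 contrasts among loci above 0 throughout averaging 5 FPKM or more, the 6 highest listed at 0, those past limma or called by the authors, and the 3 densest groups; they are printed in part. The loci ranked by fragments, and the use of fragments, were added after the values were seen. Near-identical copies of a locus could share its fragments, which these files do not show.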

Additional observations from a re-analysis of the deposited data

How the results depend on the processing

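No paired analysis was possible because each population has 1 library and no number links them. The share of summed FPKM (crossbred minus purebred, 0.488 percentage points) stayed between 0.422 and 0.679 under the 5 alternative settings of span, filter, overlap and top locus, and leaving out 1 library gave -1.07 (without 75C, a reversal) to 1.53.

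Loci at least 2-fold apart were counted again for spans under 200 nt and under 500 nt, which change the number of loci (88 and 353). In that order the counts were 31 and 89 for 75C over 50CSH, 33 and 91 for 75C over 50CSN, 24 and 63 for 75C over H, 33 and 89 for 75C over N, 20 and 68 for 50CSH over 50CSN, 29 and 97 for 50CSH over H, 29 and 88 for 50CSH over N, 31 and 94 for 50CSN over H, 35 and 110 for 50CSN over N, and 24 and 71 for H over N. With only loci above 0 in all libraries, which are 141, they were 35 for 75C over 50CSN, 24 for 75C over H, 32 for 75C over N, 24 for 50CSH over 50CSN, 31 for 50CSH over N, 32 for 50CSN over H and 21 for H over N. Loci listed at 0 numbered 15 with a mean of at least 5 FPKM, 11 under 200 nt and 38 under 500 nt, against 24.

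Of all 13871 loci, 4 passed limma, against 2 with a mean of at least 5 FPKM, 8 with robust fitting, and 3 to 21 when 1 library was left out (21 without H, 9 without N). Among short loci 0 passed, 1 with robust fitting, and 0 to 1 when 1 library was left out (1 each without 50CSH and without N); a lone purebred library was then assumed to vary like the crossbreds. Pseudocount, scaling and quantile normalization kept the counts within 1.5 times. The causes were not tested, beyond the number of loci or libraries that entered.

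Small counts limit many loci, as 67 of 165 averaged under 10 fragments. Estimated fragments, an alternative chosen after seeing the data, changed the direction of the split for 75C over both 50 percent crosses and for both 50 percent crosses over H. The near even split of 50CSH over H was 24 higher and 22 lower after quantile normalization. With only loci above 0 in all libraries, H over N became near even, with 10 higher and 11 lower. In that setting 50CSH over 50CSN became uneven, with 16 higher and 8 lower. 50CSN over H became more uneven, with 7 higher and 25 lower, against 23 and 29 in the main count. 75C over 50CSN did too, with 27 higher and 8 lower, against 32 and 21. 75C over N became less uneven, with 14 higher and 18 lower, against 18 and 34.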
